A study of Mus musculus with 29 samples.

Results

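Batf3 and the AP-1 family were followed as 10 genes: Batf, Batf2, Batf3, Jun, Junb, Jund, Fos, Fosb, Fosl2 and Atf3, out of 21938 protein-coding genes of the annotation. A deposited peak was assigned to a gene when it overlapped the gene body extended by 20 kb on each side (GRCm38, GENCODE vM21), and each chromosome, start and end was counted once within a list. The 10 windows spanned from 41.7 kb (Jund) to 87.7 kb (Atf3). They held 742 distinct regions over 25 peak lists, from 44 at Batf2 to 132 at Atf3, and only Batf3 had a region in all 25 lists, with Atf3 in 24.

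AP-1 factors are pairs of basic leucine zipper (bZIP) proteins. A JUN protein (JUN, JUNB, JUND) pairs with a FOS protein (FOS, FOSB, FOSL2), an ATF protein or a BATF protein, and the pair binds a short palindromic DNA site. BATF, BATF2 and BATF3 lack the activation domains of FOS and can bind next to IRF4 or IRF8 on composite AP-1 and IRF sites; BATF3 is best known as a factor required for conventional type 1 dendritic cells. ATF3 is a stress-induced member, and Fos, Fosb, Jun and Junb are immediate early genes. IRF8 also binds with PU.1, the ETS factor of macrophages and microglia, on composite ETS and IRF sites.

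The assay was CUT&RUN, in which an antibody directs a protein A and micrococcal nuclease fusion to chromatin and the released DNA is sequenced. IRF8 was mapped with an anti-GFP antibody in female IRF8-EGFP mice, whose IRF8 carries a green fluorescent protein tag, in sorted microglia, the macrophages of the brain, at postnatal day 9 (P9, n = 4 libraries), postnatal day 14 (P14, n = 3) and adults (3 months, n = 3), and in peritoneal macrophages (n = 3). PU.1, H3K27ac (a mark of active promoters and enhancers) and H3K4me1 (a mark of enhancers, active or not) were mapped in microglia of female adult WT and IRF8KO (KO) mice of 3 months, with 2 libraries for each target and genotype. The labels do not give the background strain, the KO allele or whether animals were pooled, the P9 libraries are 4 of 7 made and the KO H3K27ac libraries 2 of 3, and no label says that libraries of a group came from separate animals, so the spread between them may be technical. Titles of the adult and macrophage IRF8 libraries carry a batch number, and no label says that it means the same batch in both tissues. The source label of the peritoneal libraries says microglia, and the title was followed. IRF8 covered a start site of 2 of 4 peritoneal macrophage markers (Icam2 and Timd4) in all 3 macrophage lists and of 5 of 7 microglia markers, Siglech among them, in none. In the 3 adult microglia lists 0 of 4 peritoneal macrophage markers were covered in all, with Timd4 in 2, and 2 of 7 microglia markers were covered in all. The protocol gives 3 months for all samples, which was applied to the adult groups only, so the age of the macrophage donors is not settled.

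List length differed between libraries and targets. IRF8 lists held 1168 to 2068 regions at P9, 7931 to 19243 at P14 and 17048 to 29667 in adults, with 9788 to 23163 in macrophages, from 7.25 to 24.7 M fragments, and each stage and tissue had its own control library. WT PU.1 lists held 14057 and 9490 regions and KO PU.1 lists 10182 and 12509. WT H3K27ac lists held 72354 and 72875 regions, whereas KO H3K27ac replicate 1 held 88400 and replicate 2, the shallowest of that target at 8.57 M fragments, held 31524. As a check of cell identity, H3K27ac covered a start site of 6 of 7 microglia markers in both WT lists (not Tmem119) and of 0 of 4 neuron, 0 of 4 astrocyte and 0 of 2 T and B cell markers in either. Of 4 oligodendrocyte markers, Mbp was covered in both WT lists and Mog in 1. In KO, 2 of 7 microglia markers (P2ry12, Siglech) were covered in both lists and 4 of 7 in neither.

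IRF8 was bound downstream of Batf3 from P9 on, at a region that lost PU.1 and H3K27ac in KO. An intergenic region 17.6 kb from the 5′ end of Batf3, past the end of the gene (chr1:191114271-191116586, plus strand), was bound by IRF8 in all microglia libraries (4 of 4 at P9, 3 of 3 at P14, 3 of 3 adult) and in 2 of 3 from macrophages. In adult WT microglia it held PU.1 and H3K27ac in 2 of 2 libraries each. In KO microglia it held PU.1 in 0 of 2 and H3K27ac in 0 of 2 libraries, while H3K4me1 was called in 2 of 2 libraries of both genotypes. The sequences below are read from the plus strand of GRCm38 and show this site, the other PU.1 regions of Batf3 and, for comparison, the IRF8 site of Atf3 already bound at P9 and the highest ranked PU.1 regions of Batf and Junb. Capitals mark matches to an ETS core (GGAAGT), a composite ETS and IRF element (GGAA and GAAA separated by 2 bases) or an AP-1 site (TGANTCA), searched on both strands; the composite element can overlap the ETS core. The first is centred on the mean P9 IRF8 summit, the Atf3 window on the centre of the region shared by P9 lists, and both were chosen after their values were seen; the others are the central 300 bases of WT PU.1 regions.
Batf3 +18.1 kb, about the IRF8 summit of P9 (chr1:191115760-191116059): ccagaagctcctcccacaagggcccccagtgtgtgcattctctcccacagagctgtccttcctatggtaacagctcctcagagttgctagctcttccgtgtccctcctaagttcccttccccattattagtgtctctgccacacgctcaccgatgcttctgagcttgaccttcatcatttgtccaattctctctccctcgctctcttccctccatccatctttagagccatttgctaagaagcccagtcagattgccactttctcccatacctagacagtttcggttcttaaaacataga
Batf3 +17.6 kb, PU.1 lost in KO (chr1:191115280-191115579): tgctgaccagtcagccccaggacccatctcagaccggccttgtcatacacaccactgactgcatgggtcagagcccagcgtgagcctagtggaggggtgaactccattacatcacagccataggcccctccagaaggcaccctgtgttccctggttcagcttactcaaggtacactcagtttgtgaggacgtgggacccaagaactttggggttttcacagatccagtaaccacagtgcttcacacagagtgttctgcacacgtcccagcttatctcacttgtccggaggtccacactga
Batf3 +12.4 kb, PU.1 lost in KO (chr1:191110132-191110431): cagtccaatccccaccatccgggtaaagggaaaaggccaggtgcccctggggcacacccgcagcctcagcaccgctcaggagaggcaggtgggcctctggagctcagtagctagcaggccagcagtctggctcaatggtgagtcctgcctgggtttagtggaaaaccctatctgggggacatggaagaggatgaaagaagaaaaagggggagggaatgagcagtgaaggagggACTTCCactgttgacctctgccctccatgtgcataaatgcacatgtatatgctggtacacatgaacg
Batf3 -11.7 kb, PU.1 kept in KO (chr1:191085988-191086287): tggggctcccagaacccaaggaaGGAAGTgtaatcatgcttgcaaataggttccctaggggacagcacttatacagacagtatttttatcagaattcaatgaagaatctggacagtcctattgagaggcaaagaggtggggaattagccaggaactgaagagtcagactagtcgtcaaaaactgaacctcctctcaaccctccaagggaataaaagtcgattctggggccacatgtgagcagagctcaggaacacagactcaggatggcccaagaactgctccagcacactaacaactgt
Atf3 +19.9 kb, IRF8 bound at P9 (chr1:191198011-191198310): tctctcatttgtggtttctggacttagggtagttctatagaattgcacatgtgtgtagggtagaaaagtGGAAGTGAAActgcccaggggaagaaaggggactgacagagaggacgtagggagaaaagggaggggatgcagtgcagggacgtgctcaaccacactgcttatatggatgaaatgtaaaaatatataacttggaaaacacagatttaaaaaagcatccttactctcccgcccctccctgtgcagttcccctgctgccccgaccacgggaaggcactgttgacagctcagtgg
Batf +19.0 kb, PU.1 kept in KO (chr12:85705504-85705803): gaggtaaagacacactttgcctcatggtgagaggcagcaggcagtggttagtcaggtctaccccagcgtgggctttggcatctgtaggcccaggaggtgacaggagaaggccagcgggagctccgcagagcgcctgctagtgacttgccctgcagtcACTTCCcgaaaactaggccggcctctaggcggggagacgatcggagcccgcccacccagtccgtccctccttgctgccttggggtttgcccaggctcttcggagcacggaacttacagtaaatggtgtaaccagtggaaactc
Junb -3.8 kb, PU.1 kept in KO (chr8:84982348-84982647): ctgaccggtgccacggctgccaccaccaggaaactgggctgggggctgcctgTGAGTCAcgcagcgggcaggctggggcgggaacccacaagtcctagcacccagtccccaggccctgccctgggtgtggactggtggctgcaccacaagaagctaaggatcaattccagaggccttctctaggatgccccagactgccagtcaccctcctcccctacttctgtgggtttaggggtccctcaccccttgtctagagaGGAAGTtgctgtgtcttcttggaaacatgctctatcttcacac

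Both Batf3 windows of the +17.6 kb region held none of these 3 motifs, whereas the Atf3 window held GGAAGTGAAA, which matches the composite element and the ETS core. Of the 2 Batf3 windows, only the one about the P9 summit holds the WT PU.1 summits (191115918 and 191115927), and the central one does not reach them. Among all 300 base windows at the centre of P9 IRF8 consensus regions, 19.1% held the composite element and 49.3% the ETS core. Of all WT PU.1 windows, 52.7% held the ETS core, 10.9% the composite element and 8.90% the AP-1 site. The Junb window held an AP-1 site, TGAGTCA. Over its whole length, the +17.6 kb PU.1 region of Batf3 held 1 ETS core and the +12.4 kb region held 1 ETS core and 1 composite element, GGAAGAGAAA, while the kept -11.7 kb region held 2 ETS cores and 1 AP-1 site, TGACTCA. An adjacent composite of GAAA directly before an AP-1 site, and the spaced form with TTTC and 4 bases before it, the arrangements on which BATF and IRF proteins pair, were in 0 of the 13 WT PU.1 windows and 0 of the 31 adult IRF8 windows at these genes; they were in 0.168% and 0.205% of all WT PU.1 windows and in 0.195% and 0.254% of all adult IRF8 windows, so a count of 0 is no result about these genes. A match is a description of the letters, and these windows are not the whole region.

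At the Batf3 site, summit positions agreed closely between libraries. The strongest IRF8 summit of 12 libraries lay between positions 191115879 and 191115967 of chromosome 1, a spread of 88 bp within a merged region of 2316 bp. The PU.1 summits of the 2 WT libraries lay 9 bp apart, at 191115918 and 191115927. At the Atf3 site the 12 IRF8 summits spread over 326 bp, of which 274 bp were between the 3 macrophage libraries and 18 bp between the 3 P9 libraries.

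**Figure D1:**
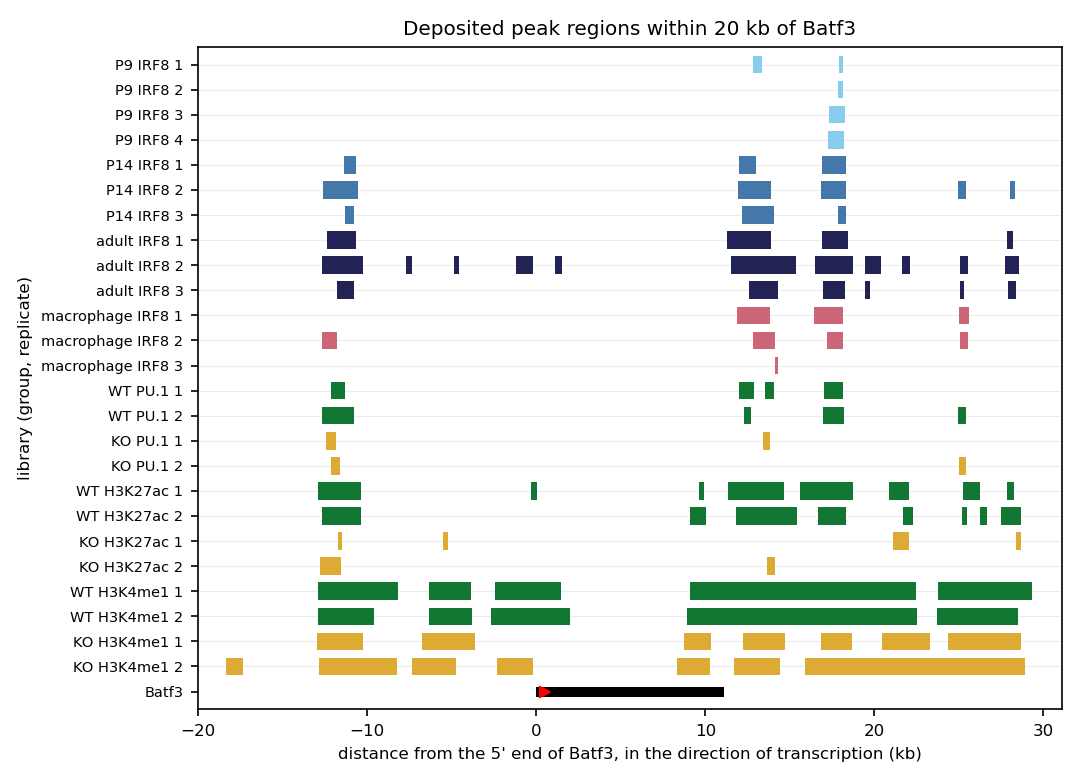
Deposited regions within 20 kb of Batf3 in the 25 lists, by distance from the 5′ end of the gene in kb (horizontal axis) and by library (vertical axis, group and replicate number); the black bar is the gene and the red arrow its start site. IRF8 regions of all 4 P9 libraries sit near +18 kb, where both WT PU.1 and both WT H3K27ac libraries have a region and the 4 KO libraries of these targets have none.

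Batf3 was the member with IRF8 in every one of the 13 IRF8 libraries. The P9 libraries had 2, 1, 1 and 1 IRF8 regions there, the P14 libraries 3, 5 and 3, the adult libraries 4, 11 and 6, and the macrophage libraries 3, 4 and 1. The P9 libraries were all below the P14 libraries, and adult replicate 2, the deepest adult library, was the highest. Every P9 list was also shorter than every P14 list (1168 to 2068 against 7931 to 19243 regions). The share of all genes with this order was not counted. The group means were 1.25 ± 0.50 (SD, n = 4) at P9, 3.67 ± 1.15 (n = 3) at P14, 7.00 ± 3.61 (n = 3) in adults and 2.67 ± 1.53 (n = 3) in macrophages. At the +17.6 kb region the authors' fold enrichment over control was 8.45, 5.14, 9.36 and 9.005 in the P9 lists, 13.6, 23.9 and 7.49 in the P14 lists, 26.5, 26.2 and 19.9 in the adult lists, and 6.21 and 5.89 in the macrophage lists that held it. Ranked by −log10 p within its own list, this region stood at the 98.9, 99.4 and 99.6 percentile of the adult lists and at the 73.8 and 74.3 percentile of the macrophage lists. In P9 lists it stood at the 88.7, 93.0 and 93.8 percentile in replicates 1, 3 and 4 and at the 43.2 percentile in replicate 2. These values rank regions within a list; lists of different length and control give no measure of change between groups.

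A second IRF8 region of Batf3, at +13.3 kb, was present in 1 of 4 P9 libraries and in 3 of 3 libraries of each of the other groups. Another, at -11.5 kb, lies over an exon of the neighbouring gene Nsl1 and was present in 0 of 4 libraries at P9, 3 of 3 at P14, 3 of 3 from adults and 1 of 3 from macrophages. Regions at +25.3 kb and +28.1 kb were seen in 5 and 4 libraries, none of them P9. No IRF8 consensus region (a stretch called in 2 or more libraries of 1 group, with their peaks merged) covered the Batf3 start site, and 0 libraries of PU.1 and of H3K27ac in either genotype had a region over it.

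In WT adult microglia Batf3 had 3 PU.1 consensus regions, and 2 of them had no peak in either KO library. The first of these, at +17.6 kb (chr1:191114812-191116046), had fold enrichments of 5.55 and 6.90 in the WT libraries. The other, at +12.4 kb (chr1:191109854-191110709), had 5.04 and 2.93. The region at -11.7 kb (chr1:191085208-191087067) was present in all 4 libraries, at 4.36 and 4.81 in WT and 6.59 and 3.93 in KO. Over all WT PU.1 consensus regions, 25.1% (1347 of 5359) were lost in this way, so 2 of 3 at 1 gene is a small count beside that background. By mean within-list percentile the lost regions stood at 64.8 (+17.6 kb) and 21.1 (+12.4 kb) and the kept region at 38.6; of all WT PU.1 regions between the 60 and 70 percentile 25.8% were lost, and between 20 and 30, 47.0%. With each PU.1 library left out in turn, 2 Batf3 regions were lost every time. A region with no peak in either KO list stays lost when a list is removed, so this count could not fall. Neither lost region had a −log10 p of at least 10 in both WT libraries, and under that threshold Batf3 had 0 PU.1 consensus regions. KO libraries each had 1 more PU.1 region nearby, in replicate 1 near +13 kb and in replicate 2 near +25 kb, each overlapping a region of the WT library of the same number. With 2 against 2 libraries the smallest exact p is 0.33, so no test was made between the genotypes.

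H3K27ac around Batf3 had 7 WT consensus regions, and 3 of them were absent from both KO libraries. The lost region over the IRF8 site, at +17.2 kb (chr1:191113463-191116560), had fold enrichments of 10.5 and 10.0 in WT and a mean within-list percentile of 94.6. Of all WT H3K27ac regions between the 90 and 100 percentile, 7.80% (435 of 5578) were lost, against 34.0% of all 36697 WT H3K27ac consensus regions. The other lost regions were at +9.6 kb, in an intron (5.86 and 4.58), and at +25.9 kb (4.01 and 9.16). The 4 that were kept lay at -11.6, +13.4, +21.6 and +28.1 kb. The region at -11.6 kb was called in both KO libraries, the other 3 in 1 KO library each. The +17.2 kb region was absent from KO replicate 1 (88400 regions in the list) and from KO replicate 2 (31524). Each group of H3K27ac libraries here is small, and the shallow KO replicate 2 had 2 regions in the window, against 4 in KO replicate 1 and 8 in each WT library.

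H3K4me1 at Batf3 had 0 of 5 WT consensus regions lost and 0 of 5 KO consensus regions gained, beside 13.0% lost and 23.8% gained over all H3K4me1 regions. A broad WT region from the 3′ end of the gene across the IRF8 sites (chr1:191106764-191120383, 13620 bp) had a highest fold enrichment of 4.38 and 3.42 in WT, and KO libraries overlapped it with 4.89 and 5.02. In both KO libraries the same stretch was called as several separate regions, of which 1 in replicate 2 ran on across the IRF8 site and past the WT region. Over the Batf3 start site H3K4me1 was called in 2 of 2 WT and 0 of 2 KO libraries; a KO region of replicate 2 ended just before it.

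Atf3, on the minus strand further along chromosome 1, was the only other member bound by IRF8 at P9. An intronic region 19.6 kb from its 5′ end (chr1:191197355-191199508) was present in 3 of 4 P9 libraries and in 3 of 3 libraries of each later group and of macrophages. Its fold enrichment was 7.85, 10.4 and 7.50 in P9 replicates 1, 3 and 4, 8.86, 14.5 and 5.32 at P14, 24.4, 15.8 and 11.9 in adults, and 26.3, 18.3 and 5.12 in macrophages. Unlike the Batf3 site it kept PU.1 in KO, with fold enrichments of 9.37 and 4.47 in WT and 8.67 and 6.26 in KO. The H3K27ac region over it (chr1:191196528-191202603) was also kept, at 8.94 and 14.8 in WT and 10.0 and 6.69 in KO. The KO replicate 2 peak inside that region did not reach the IRF8 site itself, where H3K27ac was called in 2 of 2 WT and 1 of 2 KO libraries.

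Among the 10 genes, PU.1 consensus regions of KO with no WT peak (gained) were at Atf3 alone. Of 4 KO PU.1 consensus regions there, 2 had no peak in either WT library. One, at +35.0 kb (chr1:191182557-191183493), spanned the downstream start site of Atf3 at position 191183340, which the peak of 1 KO library covered, with fold enrichments of 3.43 and 3.03 in KO. The other, intronic at +16.3 kb (chr1:191201184-191202348), had 5.49 and 3.02. Both ranked low in their lists, with mean percentiles of 2.25 and 28.5, and trimming the lists to equal length, which removes the lowest ranked regions, took both out of the consensus, so that they could not be called there. Over all KO PU.1 consensus regions 16.5% (757 of 4585) were gained, and over the 10 genes 2 of 11. At the downstream start site IRF8 was called in 3 of 3 adult libraries, 2 of 3 from macrophages and none at P9 or P14, and H3K27ac in 2 of 2 WT and 1 of 2 KO libraries.

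Of 9 WT H3K27ac consensus regions at Atf3, 4 were lost in KO, near the 34.0% of all WT H3K27ac regions. They lay at -16.8 kb (fold enrichments 4.32 and 6.87), at +1.2 kb, 825 bp from the upstream start site (7.09 and 8.51), at +32.2 kb (3.32 and 5.17) and at +37.1 kb (3.70 and 7.52). The +1.2 kb region, with a mean percentile of 86.3, was the highest ranked of them and had no IRF8 region in any library. Over the upstream start site itself, no IRF8, PU.1 or H3K27ac region was called in any library.

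**Figure D2:**
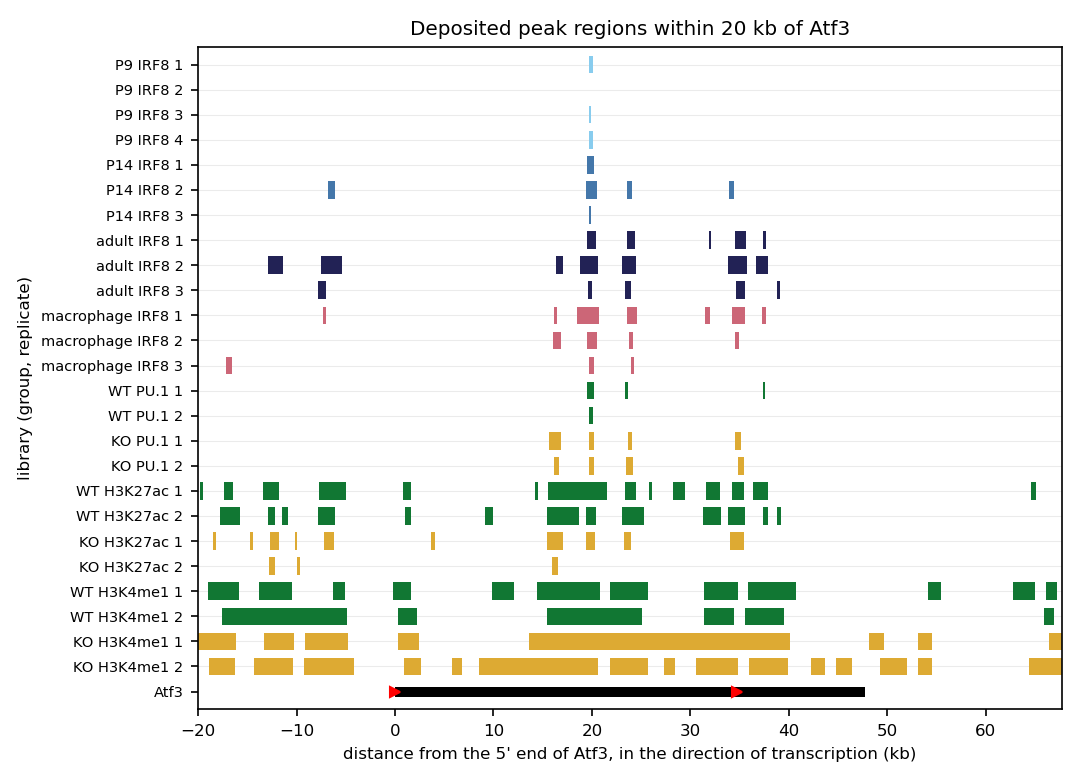
Deposited regions within 20 kb of Atf3 in the 25 lists, by distance from the 5′ end in the direction of transcription in kb (horizontal axis) and by library (vertical axis, group and replicate number); the black bar is the gene and red arrows are its start sites. The IRF8 region near +20 kb is present in 12 of 13 IRF8 libraries and in all 4 PU.1 libraries, and the KO PU.1 libraries have regions at +16.3 and +35.0 kb where the WT libraries have none.

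Batf had 0 IRF8 regions in 4 of 4 P9 libraries, 3, 4 and 3 at P14, 3, 5 and 3 in adults, and 2, 2 and 1 in macrophages. All macrophage libraries were below all P14 and adult libraries. Libraries titled batch 1 had 3 and 5 (adult) and 2 and 2 (macrophage), and those titled batch 2 had 3 and 1. List lengths ran from 9788 to 23163 regions in macrophages, 7931 to 19243 at P14 and 17048 to 29667 in adults. The share of all genes with this order was not counted, so it is no result about Batf. The main Batf site was intronic, at +19.0 kb (chr12:85705296-85706011), and had the highest ranked PU.1 region of the 10 genes, at a mean percentile of 99.5. Its PU.1 fold enrichment was 33.3 and 14.5 in WT and 32.2 and 22.8 in KO. IRF8 was present there in 0 of 4 P9 libraries and in 3 of 3 libraries of P14, adult and macrophage, and H3K27ac was called in all 4 libraries (12.3 and 12.2 in WT, 5.01 and 9.72 in KO). A region downstream of the gene, at +24.3 kb (chr12:85710486-85711398), lost H3K27ac (4.18 and 4.25 in WT), and PU.1 there was called in 2 of 2 WT and 1 of 2 KO libraries. It was bound by IRF8 in 3 of 3 P14 and 3 of 3 adult libraries and 2 of 3 from macrophages.

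Batf2 had the fewest regions. IRF8 counts were 0 in 4 P9 libraries, 1, 2 and 1 at P14, 1, 4 and 1 in adults and 2, 2 and 0 in macrophages, and the P14, adult and macrophage libraries overlapped, with 1 macrophage library at 0 like those of P9. The window holds parts of Snx15, Arl2 and Majin, and the region seen in most libraries, at -12.8 kb, lies over an exon of Snx15. No IRF8, PU.1 or H3K27ac region covered the Batf2 start sites at +23.5 kb. Of 4 KO H3K4me1 consensus regions at Batf2, 3 had no WT peak, at -14.2, +23.8 and +51.2 kb, with fold enrichments between 1.84 and 2.90, beside 23.8% gained over all KO H3K4me1 regions; a count this small is no result about Batf2.

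Jun had 1 merged IRF8 region, spanning its own start site and the antisense gene Junos (chr4:95049994-95055069), in 0 of 4 libraries at P9, 3 of 3 at P14, 3 of 3 from adults and 2 of 3 from macrophages. Peaks over the start site itself were called in 3 P14, 3 adult and 1 macrophage libraries. PU.1 at -2.0 kb from Jun was kept, at 5.04 and 6.21 in WT and 7.32 and 5.36 in KO, and the H3K27ac region that spans the start site was kept, at 8.64 and 12.2 in WT and 5.72 and 3.83 in KO. The KO regions did not cover the start site itself.

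Junb had IRF8 counts of 0 in 4 P9 libraries, 2, 3 and 4 at P14, 4, 6 and 6 in adults and 3, 3 and 0 in macrophages. The adult libraries were at or above every P14 library and above every macrophage library. List length also differed between these groups, and the share of all genes with this order was not counted, so it is no result about Junb. Its IRF8 regions included a merged stretch of 5543 bp reaching upstream from the start site (chr8:84978296-84983838), where the start site itself was covered in 1 P14 library and in no other IRF8 library. This stretch held all 3 WT PU.1 consensus regions of Junb. The highest ranked of these, at -3.8 kb with the AP-1 site shown above, had PU.1 fold enrichments of 9.53 and 11.7 in WT and 4.67 and 16.1 in KO, where a single broader KO region spanned it and the next. None of the 3 was lost. The 1 H3K27ac region lost at Junb, at +8.8 kb, lies over exons of Prdx2 and Rnaseh2a and spans a start site of Rnaseh2a.

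Jund had IRF8 counts of 0 in 4 P9 libraries, 2, 5 and 0 at P14, 2, 2 and 1 in adults and 2, 1 and 0 in macrophages, and these groups overlapped. A merged IRF8 region spanning the start site (chr8:70698515-70699065) had peaks in 2 of 3 P14 and 3 of 3 adult libraries and 1 of 3 from macrophages, which covered the start site itself in 0, 2 and 1 of them. Away from the start, a region at +21.3 kb, over an exon of Gm3336, had peaks in 1 P14, 2 adult and 2 macrophage libraries. Jund had 0 PU.1 consensus regions in either genotype and 1 H3K27ac consensus region, spanning the start, which was kept through KO replicate 1 alone.

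Fos had more IRF8 regions in macrophages than in most microglia libraries. The libraries had 0 regions at P9 (4 of 4), 2, 3 and 1 at P14, 3, 5 and 3 in adults and 8, 7 and 5 in macrophages. The lowest macrophage library equalled the highest adult library. The share of all genes with this order was not counted, so whether it is particular to Fos is not known. In libraries titled batch 1 the adult counts were 3 and 5 and the macrophage counts 8 and 7. In those titled batch 2 they were 3 and 5. Consensus regions numbered 2 at P14, 3 in adults and 8 in macrophages; Fosl2 had 1, 1 and 2, and Batf2 1, 2 and 2. A region 1.5 kb upstream of the Fos start (chr12:85472076-85472628) was present in 3 of 3 macrophage and 0 of 10 microglia libraries, and regions at +12.2 and +16.1 kb in 2 macrophage and 0 microglia libraries each. The upstream region was weak, with fold enrichments of 3.34, 2.83 and 4.87. With any 1 macrophage library left out, Fos had 3, 4 or 7 macrophage consensus regions, and with a −log10 p of at least 10 it had 2. Of the Fos regions shared by microglia and macrophages, 1 at -18.2 kb was in 3 of 3 libraries of P14, adult and macrophage. Another lay at -5.3 kb. A merged region spanning the start site had peaks in 2 of 3 P14 and 3 of 3 adult libraries and 2 of 3 from macrophages. Regions at -11 kb and +13.9 kb were each in 1 adult and 2 macrophage libraries. Peaks over the start site itself were called in 2 P14, 1 adult and 1 macrophage libraries. Of the Fos start site's own marks, PU.1 at -0.2 kb was called at 5.79 and 5.52 in WT and at 9.18 in KO replicate 2 alone. None of the 3 WT H3K27ac consensus regions at Fos was lost.

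**Figure D3:**
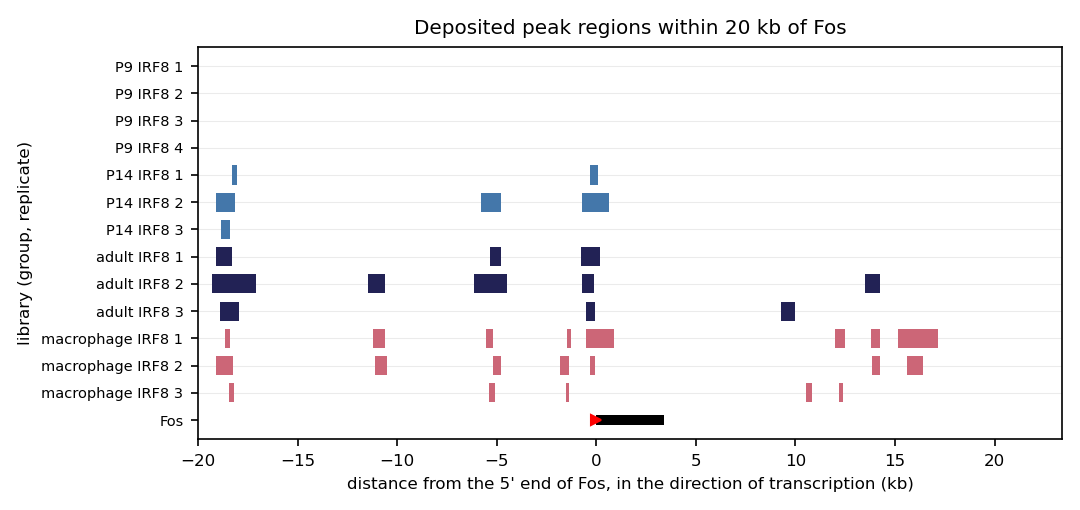
IRF8 regions within 20 kb of Fos in the 13 IRF8 lists, by distance from the 5′ end in kb (horizontal axis) and by library (vertical axis, group and replicate number); the black bar is the gene and the red arrow its start site. The P9 libraries have no region, the adult libraries 3 to 5 and the macrophage libraries 5 to 8, with the region at -1.5 kb in macrophage libraries and in no microglia library.

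Fosb and Fosl2 had few and uneven regions. Fosb had IRF8 counts of 0, 4 and 2 at P14, 3, 4 and 0 in adults and 1, 1 and 0 in macrophages; Fosl2 had 0, 3 and 2, then 1, 2 and 1, then 2, 2 and 0. Both had 0 in the 4 P9 libraries. The upstream Fosb region at -6.4 kb was present in 2 of 3 libraries of each group but P9. PU.1 8.7 kb upstream of Fosb was kept, at 11.5 and 4.48 in WT and 8.67 and 7.27 in KO. Each gene lost 1 H3K27ac region in KO: Fosb at +1.6 kb within the gene (4.17 and 4.31 in WT) and Fosl2 at -13.2 kb (6.17 and 5.09). At Fosl2, PU.1 was called in 0 of 2 WT libraries, against 1 and 2 regions in the KO libraries, with 0 consensus regions.

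Taking the 10 genes together, an IRF8 consensus region was present at 2 of 10 (Batf3 and Atf3) at P9, and at 10 of 10 in each of the 3 other groups. Over all 21938 coding genes the share with such a region was 7.00% at P9 and 32.0% at P14, then 50.6% in adults, against 39.9% in macrophages. With every IRF8 list reduced to its 1168 strongest regions, the length of the shortest P9 list, the count was 2 at P9 (Batf3, Atf3), 3 at P14 and 3 in adults (Batf, Batf3, Atf3), and 1 in macrophages (Atf3), beside 5.84%, 5.31%, 5.41% and 4.39% of all coding genes. Without P14 replicate 2 the P14 count was 6 (19.0% of all coding genes), and without macrophage replicate 1 or 2 the macrophage count was 4 (16.2%) or 3 (17.7%). The 2 P9 regions both overlapped WT PU.1 regions, as did 73.2% of all P9 regions. At P14 11 of 18 member regions did (43.8% of all), in adults 10 of 31 (27.04%) and in macrophages 8 of 26 (23.5%). A member start site was covered by 0 of 2 consensus regions at P9, and 9 of 31 in adults covered a start site of any coding gene, near the 25.2% of all adult regions.

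**Figure D4:**
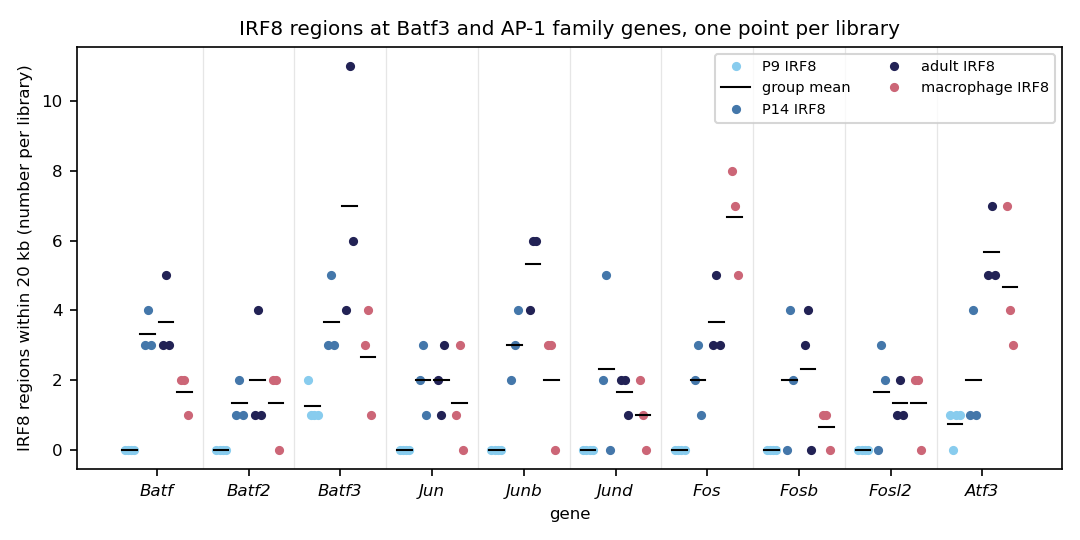
Number of IRF8 regions within 20 kb of each of the 10 genes (vertical axis) for each gene (horizontal axis); each point is 1 library, coloured by group, and black lines are group means. P9 libraries are at 0 for 8 genes and at 0 to 2 for Batf3 and Atf3, adult libraries reach 11 at Batf3, and Fos has its highest values, 5 to 8, in macrophages.

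The number of IRF8 regions over the stages P9, P14 and adult was compared per gene by an exact permutation test of the Jonckheere-Terpstra statistic (two-sided, 4200 assignments, Benjamini-Hochberg adjusted over the 16472 coding genes with a region). A rise was called at an adjusted p under 0.05 for 7 of 10 members, beside 46.0% (7582) of all genes tested and 0 genes called for a fall (0 also at an unadjusted p under 0.05). The exact permutation test gave an adjusted p of 0.0156 for Junb, Batf3 and Fos, 0.0237 for Atf3, 0.0283 for Batf and Batf2 and 0.0379 for Jun. Jund (adjusted exact permutation p = 0.109), Fosb (0.121) and Fosl2 (0.119) did not pass, each with a library at 0 at P14 or in adults. The median statistic was 29 over the 10 genes and 26.5 over all genes tested, of a highest possible 33. List length rose over the same stages: with equal list length 0 of 3 members that still had a region passed and 0 of 3899 genes (smallest adjusted p 0.89 by the same exact permutation test). With any 1 P9 library left out, 3 of 10 members passed, beside 9.72% to 10.8% of all genes tested. Without adult replicate 2 it was also 3, beside 12.2%, and without each of the other libraries 6 to 8, beside 25.9% to 49.6%. Each stage had its own control library, so stage and control cannot be told apart.

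Over the 10 genes, PU.1 regions lost in KO numbered 2 of 13, both at Batf3, beside 25.1% of all WT PU.1 regions, and this count is no result about the 10 genes. Within pair 1 (the replicate 1 libraries, which share a control) 9 of 21 WT regions had no KO peak, and within pair 2 it was 4 of 15, beside 66.4% and 57.5% of all. H3K27ac regions lost numbered 11 of 35: 4 at Atf3, 3 at Batf3 and 1 each at Batf, Junb, Fosb and Fosl2, with 0 at Jun, Jund, Fos and Batf2. The member share, 31.4%, was near the 34.0% of all regions and is no result about these genes. No H3K27ac region was gained (0 of 9), against 10.9% (1154 of 10555) of all KO regions. H3K4me1 was lost at 0 of 38 and gained at 8 of 46 regions, beside 13.0% and 23.8% of all, so the gains are no result about these genes; the 8 were 3 at Batf2, 2 at Fosl2 and 1 each at Junb, Fos and Atf3. Of the 24 member H3K27ac regions that overlapped an adult IRF8 consensus region 6 were lost (21.0% of all such regions), and of the 11 without one 5 were lost (41.2%). Without KO H3K27ac replicate 1, leaving the shallow library alone, 24 of 35 member regions counted as lost (72.9% of all regions), and without KO replicate 2 it was 13 (37.3%). Leaving out a library of the group that defines the consensus makes its single list stand for it: without WT H3K27ac replicate 1 or 2, 34 of 61 and 27 of 54 regions were lost (59.5% and 54.5% of all), and without WT PU.1 replicate 2, 8 of 21 (58.6%). Without KO PU.1 replicate 1, 4 of 13 were lost (37.4%). Without KO replicate 1 or 2, PU.1 gains were 7 of 18 (58.2% of all) and 7 of 19 (47.3%). H3K27ac gains were then 3 of 15 (55.5%) and 20 of 50 (55.9%), and H3K4me1 gains 32 of 79 (56.0%) and 18 of 66 (41.7%). In each of these settings the share of all regions moved as well, and no count is a result about these genes.

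**Figure D5:**
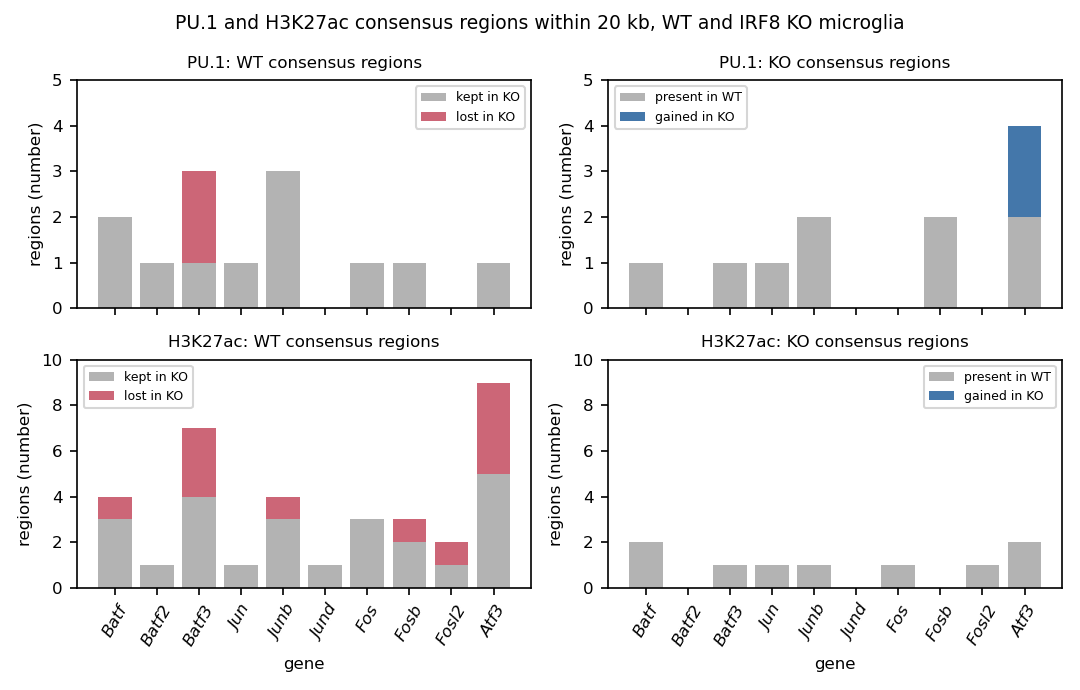
Consensus regions of PU.1 (upper row) and H3K27ac (lower row) within 20 kb of each gene (horizontal axis), as numbers of regions (vertical axis): WT regions on the left, coloured where lost in KO, and KO regions on the right, coloured where gained. PU.1 losses are at Batf3 (2 of 3) and PU.1 gains at Atf3 (2 of 4); H3K27ac losses are most numerous at Atf3 (4 of 9) and Batf3 (3 of 7), and no H3K27ac region is gained.

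In promoters of 300 bases around the start, from RefSeq (GRCm38 table, 9 of 10 members matched), 0 of 9 held the AP-1 site TGANTCA, which 7.81% of 32851 promoters held. The ETS core was in 4 of 9 (Batf, Batf3, Fos and Junb), against 23.8% of all, and an interferon-response-like element (2 copies of GAAA separated by 2 bases) in 1 of 9 (Fosl2), against 3.44%.

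Of 20 other bZIP genes (FOSL1, JDP2, the ATF, MAF, NFE2, BACH and C/EBP proteins and relatives), 4 had an IRF8 consensus region at P9 (Atf6, Bach1, Bach2 and Cebpd), 10 at P14, 17 in adults and 15 in macrophages, beside the 7.00%, 32.0%, 50.6% and 39.9% of all coding genes. PU.1 was lost at 3 of their 15 WT regions, 1 each at Nfe2l2, the oxidative stress factor NRF2, Bach2 and Jdp2, and gained at 3 of 14 KO regions (25.1% and 16.5% of all). H3K27ac was lost at 30 of 103 regions (34.0% of all), with 8 at Atf6 and 7 at Bach2, whose windows hold 21 and 36 regions. Over the 25 lists, the genes whose region numbers were most like those of Batf3 were Bco2 (Spearman's rho 0.948), Slc15a4 (0.945) and Tcte3 (0.938). List length differs widely between the targets and enters the number of regions at every gene, so these values are a description.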

How the data were processed

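CUT&RUN peak lists of 25 libraries were used; 4 IgG samples enter only as the authors' controls. Per the submitters' processing notes the tools were bcl2fastq, Trim Galore, Bowtie2, deepTools and MACS2 on mm10. Per the file headers the authors called peaks for each library with MACS (2.2.7.1 for IRF8 and PU.1, 2.2.6 for histone marks), and the deposited values per peak are the pileup signal, −log10 p and −log10 q, and fold enrichment over control, used only within a list. H3K4me1 was called as broad regions, and its q column was not used. The PU.1 replicate 2 lists had another control and a looser q threshold than replicate 1.

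All peaks lay inside GRCm38 chromosome lengths; genes came from GENCODE vM21. Groups follow the sample titles. Regions were counted once per list, a consensus region needed peaks in at least 2 libraries, and overlap meant at least 1 bp. A WT consensus region was lost when neither KO list overlapped it, and gained regions were defined in reverse. The trend test was checked on simulated data. The genes, gene lists and tests were chosen with earlier results of these data known; regions named are those lost or gained for PU.1 or H3K27ac, those bound by IRF8 at P9 and, beyond that rule, regions picked after their values were seen. Alternatives were other windows (5 and 50 kb), a −log10 p of at least 10, equal list length, stricter consensus, overlap and absence rules, a replicate block, PU.1 pairs sharing a control (added after seeing the data) and leaving out each library. Counts from peak lists depend on depth, and no interval beyond the spread between libraries can be given. Python 3.11.15, pandas 2.3.3, numpy 2.4.6 and pysam 0.24.0 were used.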

Additional observations from a re-analysis of the deposited data

Results flagged for a closer look

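Among 7 quantities compared within the 4 P9 libraries, 3 had a library far from the other 3 (gap over range above 0.83); chance flags about 1 in 20 groups, and small whole numbers with ties are flagged easily. P9 replicate 1 had 2 IRF8 regions at Batf3, where the others had 1. P9 replicate 2 had 0 IRF8 regions at Atf3, where the others had 1. In the same replicate 2 the Batf3 region present in all P9 lists stood at the 43.2 percentile of its list, against 88.7, 93.0 and 93.8 in the others. Replicate 2 has the shortest P9 list, with 1168 regions from 17.8 M fragments.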

How the results depend on the processing

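The share of all genes or regions under the same setting stands in parentheses. Counts of the 10 genes with an IRF8 consensus region moved in macrophages to 5 when −log10 p had to reach 10 (20.6%), 1 at equal list length (4.39%) and 4 with all libraries required (14.8%). At P9 they moved to 1 with a 5 kb window (4.42%), 4 with a 50 kb window (11.5%) and 1 with all libraries required (1.99%), and at equal list length to 3 at P14 (5.31%) and 3 in adults (5.41%). The count called for a rise over the stages moved from 7 to 1 with the −log10 p threshold (16.8%), 3 with a 5 kb window (25.3%), 0 at equal list length (0%) and 0 under the replicate block (0%), where stages were permuted among libraries of the same number (smallest adjusted p 0.053 by this exact permutation test over all genes). At an unadjusted p under 0.05 the exact permutation test called 1 member and 147 genes at equal list length, and 6 members and 6577 genes under the block. In the pairing check 2 of 9 same-numbered pairs, both P14 with adult, correlated above 0.1 (-0.051 to 0.221). The other pairs ran from -0.241 to 0.106. The labels link these libraries by number alone, and the check cannot show whether they share more. For PU.1 the WT and KO libraries of one number share a control; within these pairs (a replicate block chosen after seeing the data, each WT or KO list read against its partner) 9 of 21 and 4 of 15 member regions were lost (66.4% and 57.5% of all) and 8 of 19 and 8 of 18 gained (53.6% and 67.7%). At Batf3 2 of 4 WT regions were lost in each pair, a count that could not be below 2, as both regions lacked a peak in either KO list. With 2 libraries a group no test was made.

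PU.1 regions lost (2 of 13) became 0 of 3 with the −log10 p threshold (28.1%), 1 of 9 at 5 kb and 5 of 27 at 50 kb (25.1%), 4 of 13 when 50% cover was required (38.1%) and 5 of 13 when absence from the KO consensus sufficed (48.0%). PU.1 gained (2 of 11) became 0 of 4 with the threshold (19.6%), 0 of 9 at equal list length (17.6%), where both regions were trimmed away, and 4 of 11 with absence from the WT consensus (39.1%). H3K27ac lost (11 of 35) became 22 of 61 at 50 kb (34.0%), 7 of 20 at equal list length (35.4%), 25 of 35 with 50% cover (68.8%) and 26 of 35 with absence from the consensus (78.4%). H3K4me1 lost (0 of 38) became 1 (25.2%) and 3 (30.3%) under these 2 rules. H3K4me1 gained (8 of 46) became 0 of 0 with the threshold, 4 of 26 at 5 kb and 14 of 86 at 50 kb (23.8%), 15 of 46 with 50% cover (43.0%) and 14 of 46 with absence from the consensus (44.4%). The cause of the other changes was not tested.

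With 1 library left out, the counts ranged over 2 to 2 (P9), 6 to 9 (P14), 7 to 10 (adult) and 3 to 10 (macrophage) for genes with IRF8, 3 to 8 for the rise, 2 to 8 and 3 to 7 for PU.1 lost and gained, 13 to 34 and 0 to 20 for H3K27ac, and 1 to 2 and 11 to 32 for H3K4me1. Of all alternatives, 54 stayed within 1.5 times the main count and 58 did not.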
